A study of Mus musculus with 16 samples.

Results

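Formaldehyde RNA immunoprecipitation (fRIP) of Sox2 against its input is described here in mouse embryonic stem cells (mESC). The libraries were chosen by their labels, which give formaldehyde as crosslinker and either IP or input as the pulldown. There are 8 such libraries, 4 Sox2 IP and 4 input, among 16 in all. The other 8 were made after ultraviolet light (UV-RIP). All 16 come from male mESC kept on gelatin with serum, LIF and the inhibitors PD0325901 and CHIR99021, with no label of a mutation or transgene. The titles number the replicates 3, 4, 5 and 6. By the study's methods the replicates were independent, and an input was drawn from the cleared supernatant to which the antibody was then added. The replicate numbers therefore pair an IP with its input. Cells were lysed by sonication, and the RNA was freed from protein, treated with DNase and depleted of ribosomal RNA before sequencing. No library of a control antibody was analysed here, so every enrichment is against input alone.

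Sox2 is a transcription factor with an HMG box that binds DNA and helps to hold stem cells in the pluripotent state. Formaldehyde links protein to nucleic acid and also protein to protein, so RNA recovered with Sox2 after formaldehyde can be held directly or through other proteins and chromatin. The input is RNA of the same cleared lysate before the pulldown, which holds both nuclear RNA, much of it not yet spliced, and cytoplasmic messenger RNA.

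The values are unique molecular identifiers (UMIs), each of which counts an RNA fragment once, summed over gene bodies with introns. UMIs of a gene per 1000000 UMIs of its library are given as CPM. IP libraries held between 17728081 and 21211537 UMIs and inputs between 13627606 and 15381686. Sox2 itself was listed at 0 in all 16 libraries, and its gene body (chr3:34650405-34652461, plus strand, GRCm38) lies inside that of the noncoding RNA Sox2ot (chr3:34104270-34682619) on the same strand. All 385 protein-coding genes that lie inside a gene body of the same strand were at 0 in every library, against 21.4% of the 649 inside a gene body of the other strand alone and 22.1% of the 10801 that overlap no other. Nothing is therefore said of Sox2 RNA or of other protein-coding genes nested in this way. Noncoding genes nested on the same strand inside genes named below were at 0 as well, such as the snoRNAs in Rpl4 and Rian. Values of the noncoding types leave such members out. Of 9 mESC markers, 8 had UMIs in every input, and the markers summed to between 3863 and 4689 CPM in the inputs. In the inputs the 4 trophoblast markers summed to between 54.5 and 67.2 CPM, the 5 primitive endoderm markers to between 9.70 and 12.3, the 3 primed or epiblast markers to between 3.51 and 4.84, the 5 fibroblast markers to between 2.10 and 3.30, the 3 neural markers to 2.41 or less and the 3 mesoderm markers to 1.83 or less. Sox1 and Neurod1 were at 0 in every input, so the neural sum is that of Pax6. Most of the trophoblast sum was Tfap2c, at 49.8 to 61.2 CPM. The part of other cell types in the results was not tested.

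Libraries of 2 replicates stand apart. The input of replicate 4 had the lowest correlations with the other inputs (Pearson's r of log CPM between 0.972 and 0.98 over 10373 genes), and 135 genes there were more than 2-fold from the median of the other 3 inputs, against 7 or fewer in any other input. The IP of replicate 5 had 16 such genes, against 1 or fewer in the other IP libraries. The genes concerned are described near the end.

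In total 22936 genes were tested. A gene was called enriched when its fold change of IP over input was above 1.5 with an adjusted p below 0.05 by edgeR's quasi-likelihood test with replicates as blocks, and depleted when the mirror held. There were 2018 enriched genes (8.80%) and 2448 depleted genes (10.7%). The median log2 fold change over all genes tested was -0.03. Of the enriched genes, 1974 were higher in the IP in 4 of 4 replicates, and in 1828 every IP library lay above every input. Of the depleted genes, 2366 were lower in 4 of 4 replicates, and in 2187 every IP library lay below every input. Most changes were moderate. The median log2 fold change was 0.83 among the enriched and -0.85 among the depleted genes. CPM values are shares of a library, so a gene that gained and other genes that lost cannot be told apart from these values alone, nor, in such bulk samples, fewer cells of a kind from less RNA per cell.

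Enriched genes had long gene bodies, with a median of 53678 bases, whereas depleted genes had a median of 6661 bases and all genes tested of 16870. The median number of separate exon blocks was 10 in the enriched and 4 in the depleted genes, and the GC content of the longest transcript was 53.3% and 47.6%. These properties were not used to call the genes. The functional classes are grouped below by what their genes do, and each count can be read against the 8.80% and 10.7% of all genes.

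**Figure D1:**
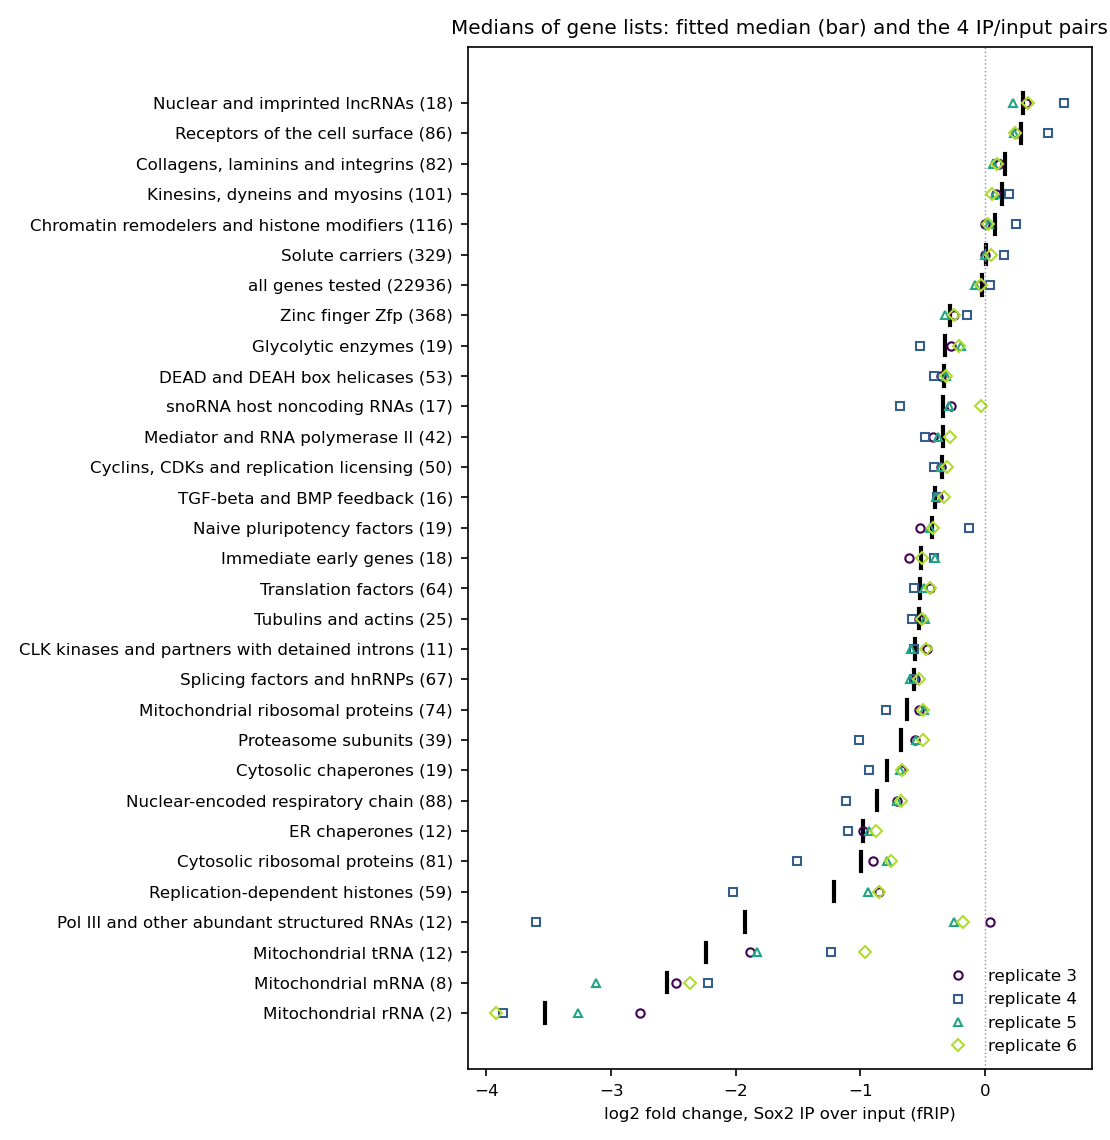
Median log2 fold change of IP over input for 30 gene lists and for all genes tested, with the number of genes in brackets; the bar is the median of the fitted values and the symbols are the medians in replicates 3 to 6 over members with a mean of 10 or more UMIs. Mitochondrial RNAs lie lowest, nuclear and imprinted lncRNAs and cell surface receptors highest, and replicate 4 lies apart in the histones (-2.02 against -0.85 to -0.94 in the other replicates) and the abundant structured RNAs.

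RNAs made from the mitochondrial genome were the most depleted class. All 8 mitochondrial mRNAs tested were depleted, with a median log2 fold change of -2.55, as were both mitochondrial rRNAs (median -3.53) and 8 of 12 tRNAs (median -2.24). The class of 37 mitochondrially encoded genes took 0.26% ± 0.075 (SD, n = 4) of the UMIs in the IP and 1.42% ± 0.278 in the input, and was lower in the IP in 4 of 4 replicates. An exact permutation test paired by replicate gave p = 0.13, the smallest it can give with 4 pairs, and the unpaired exact test gave p = 0.0286, the smallest it allows.

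mt-Co1, the catalytic subunit of cytochrome c oxidase, had 1730, 1418, 793 and 1437 CPM in IP 3 to 6, and 7585, 4556, 6351 and 6717 in input 3 to 6. The groups lay far apart, with IP 5 lowest of the IP libraries and input 4 lowest of the inputs. The log2 fold change was -2.26 (SE 0.13, edgeR adjusted p = 7.83e-12). mt-Rnr2, the large rRNA of the mitochondrial ribosome, had 10.8, 4.86, 5.47 and 5.31 CPM in the IP and 118, 87.5, 58.8 and 89.1 in the input. Every IP library was far below every input, and IP 3 was the highest of the IP libraries. Its level was 13.6-fold lower in the IP, a log2 fold change of -3.76 (SE 0.12, edgeR adjusted p = 2.38e-16), the largest depletion among called genes averaging at least 100 UMIs and the same direction in 4 of 4 replicates. Since ribosomal RNA was removed from every library, its absolute level is that of the remainder. mt-Nd2 (-3.24), mt-Cytb (-2.83), mt-Nd1 (-2.54) and mt-Nd5 (-2.51), which encode subunits of the respiratory chain, were depleted to like degrees. The tRNAs mt-Tw (log2 fold change -3.60) and mt-Tt (-3.03) were depleted too, on low counts of 0.609 CPM or less in every IP library.

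mRNAs of the translation machinery were depleted as well. Of 81 genes of cytosolic ribosomal proteins tested, 72 were depleted and 0 enriched, with a median log2 fold change of -0.99 and not a single member above 0. As a class they took 0.77% ± 0.084 (SD, n = 4) of the UMIs in the IP and 1.51% ± 0.424 in the input. Rpl4, a protein of the large subunit, had 455, 577, 616 and 572 CPM in IP 3 to 6 and 800, 1271, 1032 and 964 in the inputs. The highest IP library was below the lowest input, and input 4 was the highest of all. This gave a log2 fold change of -0.86 (SE 0.08, edgeR adjusted p = 4.91e-09). Rpl8 (-0.84) and Rps2 (-0.79) were depleted likewise. Rpl3 passed the test with a smaller change (log2 fold change -0.41, edgeR adjusted p = 6.35e-04), below the fold required, so it was not called. Input 4 was also the highest for Rpl3, and the log2 fold change was -0.26 without replicate 4.

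Of 64 translation factors, 24 were depleted and 1 enriched (median -0.52), against 15 and 0 with the trend on gene length removed. Eef1a1, which carries aminoacyl-tRNA to the ribosome, had 1182, 1463, 1612 and 1442 CPM in the IP and 2020, 3492, 2460 and 2394 in the input. No IP library reached the lowest input. Its log2 fold change was -0.84 (SE 0.09). The scaffold Eif4g1 gave -0.12 (edgeR adjusted p = 0.215). The enriched member was Eif4g3, named after its values were seen, with a log2 fold change of 0.73 and a gene body of 215487 bases, whereas the depleted members had gene bodies between 2212 and 32662 bases.

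Mitochondrial proteins encoded in the nucleus were depleted in 2 classes, each with 1 enriched member. Of 74 mitochondrial ribosomal protein genes, 39 were depleted and 1 was enriched (median -0.62), against 19 and 0 (median -0.32) with the trend on gene length removed. That 1 was Mrps28, with 177, 146, 124 and 151 CPM in the IP and 111, 87.3, 84.8 and 98.3 in the input. The groups did not overlap, and the log2 fold change was 0.64 (SE 0.08, edgeR adjusted p = 2.41e-07). Its gene body spans 121773 bases (chr3:8802146-8923918, minus strand), against a median of 7982 in the list, and with the length trend removed its value was 0.32 and it was not called. Of 88 genes of the respiratory chain, 61 were depleted and 1 enriched (median -0.87). Atp5b, the catalytic beta subunit of ATP synthase, had 382, 478, 489 and 452 CPM in the IP and 644, 948, 821 and 742 in the input. The IP libraries were all lower, with a log2 fold change of -0.80 (SE 0.07, edgeR adjusted p = 6.76e-09). The enriched member, Cox10, named after its values were seen, makes a heme precursor for cytochrome c oxidase and had a gene body of 116842 bases with a log2 fold change of 0.68. The longest gene body of the list, at 247290 bases, belonged to a depleted member.

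Chaperones were depleted in both compartments. Of 12 chaperones of the endoplasmic reticulum (ER), 11 were depleted (median -0.98), and of 19 cytosolic chaperones, 16 (median -0.78), with 0 enriched in either list. Hsp90b1, the HSP90 of the ER, had 182, 177, 161 and 173 CPM in the IP and 417, 522, 390 and 355 in the input. The IP libraries were tightly grouped at well below the inputs. The fitted log2 fold change was -1.27 (SE 0.08, edgeR adjusted p = 5.96e-11). Canx (-0.99), Calr (-0.98) and P4hb (-0.98), which fold glycoproteins or form disulfide bonds, changed by like amounts. In the cytosol, Hsp90aa1 was depleted by a log2 fold change of -1.14 and Hsp90ab1 by -0.60. Proteasome subunits were depleted in 25 of 39 (median -0.67), or in 17 without replicate 4, with Psmd2 at -0.62 and Psmd11, which was not called, at -0.43.

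Further abundant classes lay below the background of all genes. Depletion was called in 9 of 25 tubulins and actins (median -0.53), 5 of 19 glycolytic enzymes (median -0.32), 10 of 50 cyclins, CDKs and licensing factors (median -0.34), 32 of 67 splicing factors and hnRNPs (median -0.57) and 13 of 53 DEAD and DEAH box helicases (median -0.33). Part of these calls depended on the fit. With the trend on gene length removed, 1 of the tubulins and actins, 2 of the glycolytic enzymes, 6 of the cyclin list and 21 of the splicing factors were depleted, and with the trend on GC content removed 6 of the helicases and 19 of the splicing factors. Without replicate 4, 3 glycolytic enzymes were depleted. Actb, cytoplasmic beta-actin, had 642, 822, 932 and 724 CPM in the IP and 1328, 1814, 1690 and 1506 in the input. No value of the IP reached that of any input, and the log2 fold change was -1.03 (SE 0.07). Tubb5 gave -0.84 and the hnRNP gene Hnrnpu -0.83. Ddx3x, an RNA helicase of translation initiation, had 225, 240, 212 and 216 CPM in the IP and 446, 609, 439 and 442 in the input. The IP libraries lay close together and far below the inputs, of which input 4 was highest. Its log2 fold change was -1.10 (SE 0.08, edgeR adjusted p = 1.58e-10). Gapdh was depleted by a log2 fold change of -0.59 (edgeR adjusted p = 7.62e-07), just past the fold of 1.5, whereas Pkm (-0.32) and the spliceosome core Prpf8 (-0.23) were not called.

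**Figure D2:**
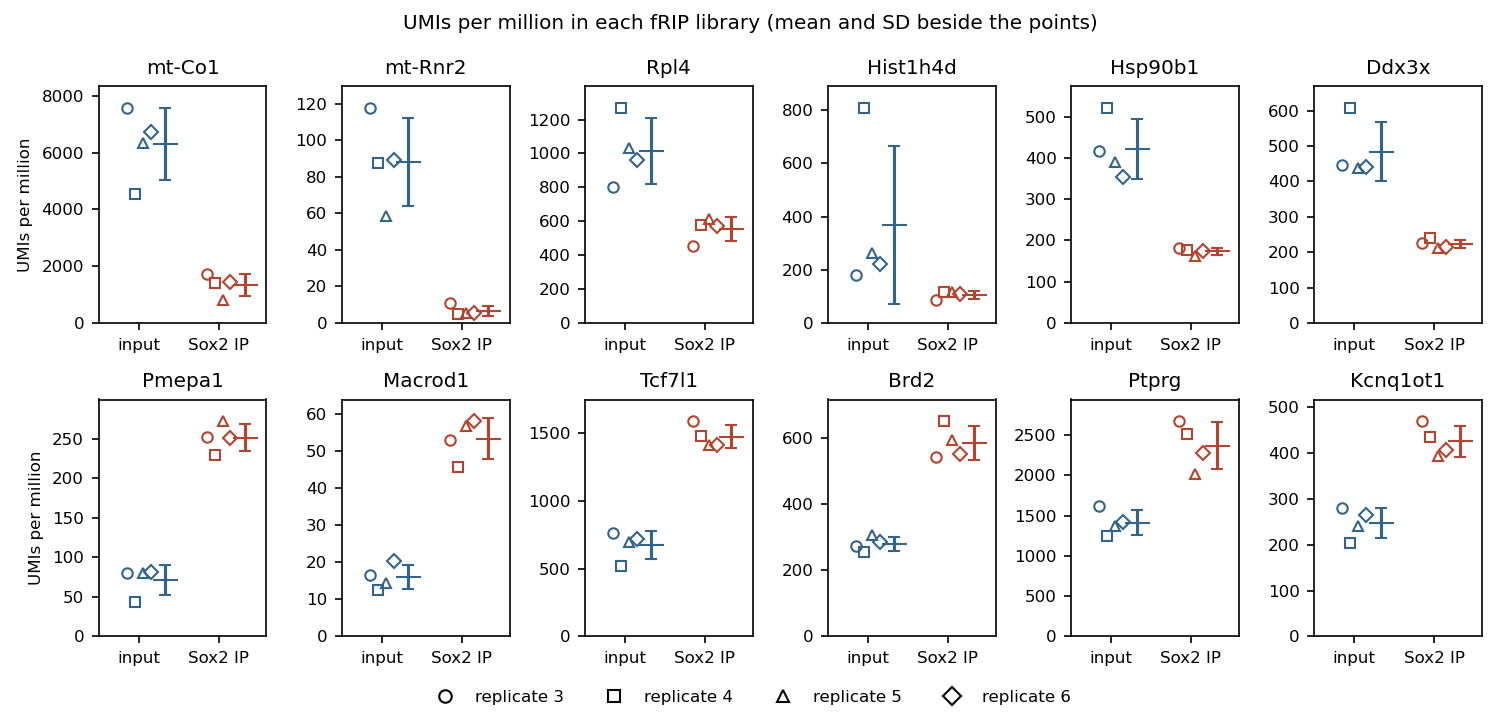
CPM of 12 genes in each fRIP library (vertical axes from 0, 1 panel a gene), with inputs in blue, Sox2 IP in red, symbols for replicates 3 to 6, and the mean with its SD beside them. In all 12 genes the IP and input libraries do not overlap, and for Hist1h4d the input of replicate 4 (810) lies far above the other inputs (180 to 263).

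Genes of the replication-dependent histones, most of which have no introns and whose mRNAs end in a stem-loop in place of a poly(A) tail, were depleted in 55 of 59 (median -1.22), with 0 enriched. Every family took part, with medians of -1.03 for H1, -1.21 for H2A, -1.24 for H2B, -1.16 for H3 and -1.48 for H4. Hist1h4d (chr13:23581598-23582735) had 84.6, 117, 115 and 108 CPM in the IP and 180, 810, 263 and 222 in the input. The groups did not overlap, and input 4 was far above the other inputs. In the fit the log2 fold change was -1.52 (SE 0.17), and -1.11 without replicate 4. Hist1h1d, a linker histone, gave -1.04 and -0.75 without replicate 4, Hist1h2bb gave -1.38 and -0.91, Hist1h3e -1.32 and -1.05, and Hist1h4c -1.85 and -1.27. Without replicate 4, 52 of 59 histone genes were depleted, but the median was -0.92. It was -0.91 for H4 and between -0.98 and -0.81 for the other families. The depletion of the class therefore did not rest on that replicate, whereas its size did in part.

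Genes whose exons merge into a single block over all annotated transcripts were often depleted too. Such a block does not exclude a spliced transcript. Among nuclear protein-coding genes averaging at least 100 UMIs, 138 had their exons in a single block, of which 106 were depleted and 0 enriched (median -0.91). Leaving out the histones, 59 of 90 such genes were depleted (median -0.71). In the shortest of 5 bins of gene-body length, 45.7% of genes were depleted (median -0.53). Genes with more than 1 exon block had a median of -0.08, with 1467 of 9807 depleted and 1095 enriched.

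In structured RNAs the input of replicate 4 decided much of the value. Of 12 abundant RNAs in this list (7SK, signal recognition particle, Y, telomerase, RNase P and related RNAs, with the longer loci Gm26917 and Gm42418), 8 were depleted with a median of -1.93, but without replicate 4 only 2 were, with a median of -0.21. Of 58 snRNA genes, 19 were depleted (10 without replicate 4), and of 48 genes typed as misc_RNA 15 were depleted (2 without replicate 4), with a median of -0.71 that became 0.33 without replicate 4. Shown are the sequences of 4 RNAs with log2 fold changes between -3.31 and -3.11 that were depleted with and without replicate 4. They are Rnu12, the U12 RNA of the minor spliceosome (chr15:83149644-83149794), Gm25360 (chr1:72226240-72226430) and Gm22973 (chr12:59040335-59040525), which open with the letters of the U2 spliceosomal RNA, and Bc1 (chr7:144914470-144914637), a cytoplasmic RNA known from neurons that represses translation. All are whole transcripts on the plus strand of GRCm38 from GENCODE vM21, single noncoding exons. Capitals mark ATTTTTG, the letters of the uridine-rich Sm site, in the first 3, and the longest run of A in Bc1.
Rnu12: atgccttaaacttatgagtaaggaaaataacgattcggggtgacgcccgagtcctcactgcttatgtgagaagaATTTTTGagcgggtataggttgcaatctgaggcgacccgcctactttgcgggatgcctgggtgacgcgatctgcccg
Gm25360: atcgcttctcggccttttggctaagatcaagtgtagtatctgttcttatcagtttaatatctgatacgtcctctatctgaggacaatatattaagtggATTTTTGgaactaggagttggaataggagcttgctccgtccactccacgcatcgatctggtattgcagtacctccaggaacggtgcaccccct
Gm22973: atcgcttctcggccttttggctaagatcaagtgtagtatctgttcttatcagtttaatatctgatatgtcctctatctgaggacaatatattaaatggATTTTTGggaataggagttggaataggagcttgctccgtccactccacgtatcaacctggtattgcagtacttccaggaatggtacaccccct
Bc1: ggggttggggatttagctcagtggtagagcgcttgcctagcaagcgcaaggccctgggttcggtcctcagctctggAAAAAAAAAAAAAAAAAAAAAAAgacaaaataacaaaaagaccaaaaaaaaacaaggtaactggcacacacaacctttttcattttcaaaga

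The letters ATTTTTG were searched on the transcript strand and found in 46 of 1383 annotated snRNA genes (3.33%) and in 25 of 3519 other transcripts of 100 to 200 bases (0.71%). Gm25360 and Gm22973 share 181 of 191 bases position by position, and copies this alike can exchange reads, so their counts are uncertain as single genes. Gm25360 had 2.82, 1.56, 1.89 and 2.71 CPM in IP 3 to 6 and 8.06, 74.8, 19.8 and 7.26 in input 3 to 6. The groups did not overlap, with input 4 far above and input 5 next. The log2 fold change was -3.18 (SE 0.37, edgeR adjusted p = 2.12e-07) and -2.24 without replicate 4. For Gm22973 the values were -3.17 and -2.42.

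Rnu12 had 0.959, 1.17, 1.23 and 1.27 CPM in the IP and 2.60, 67.3, 5.36 and 1.17 in the input. Input 6 lay within the IP libraries, and input 4 alone carried most of the mean. The log2 fold change of -3.31 (SE 0.50) became -1.39 without replicate 4. Bc1 had 2.37, 3.02, 8.35 and 2.99 CPM in the IP and 13.2, 220, 20.9 and 12.8 in the input. Here the groups did not overlap, and the log2 fold change was -3.11 (SE 0.45), or -1.79 without replicate 4. Terc, the RNA template of telomerase, was called depleted (-1.26), but gave -0.39 without replicate 4 and was then not called, and the guide RNA Scarna2 went from -1.01 to -0.52 and was likewise not called. Rn7sk, which holds the elongation factor P-TEFb inactive, was not called (-0.71, edgeR adjusted p = 0.09) and gave 0.00 without replicate 4.

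Of 19 naive pluripotency factors tested, 5 were depleted and 1 enriched (median -0.42), and with the trend on gene length removed 1 was depleted and 1 enriched. Nanog and Pou5f1, named after their values were seen, encode homeobox and POU factors that act with Sox2. Nanog had 208, 224, 224 and 228 CPM in the IP and 391, 642, 439 and 432 in the input. Pou5f1 had 184, 228, 287 and 230 in the IP and 294, 504, 399 and 332 in the input. In both genes every IP library was below every input. The log2 fold changes were -1.08 (SE 0.09) and -0.70 (SE 0.09). The enriched member was Tcf7l1, a repressor that acts at the end of the Wnt pathway. It had 1592, 1483, 1416 and 1413 CPM in the IP and 762, 522, 697 and 718 in the input. The IP libraries were about level and far above the inputs, and the log2 fold change was 1.14 (SE 0.08, edgeR adjusted p = 2.53e-10). Esrrb, an orphan nuclear receptor, passed the test with a log2 fold change of 0.58, just short of the fold required. Tcf7l1 and Esrrb have gene bodies of 162877 and 160512 bases, and the 5 depleted factors of 3224 to 7145.

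The signalling list of TGF-beta and BMP feedback split into both directions. Of 16 genes, 5 were enriched and 7 depleted, or 5 and 3 with the trend on gene length removed. The enriched members were Pmepa1, Smad6, Ski, Smurf1 and Smad7 (log2 fold changes from 0.88 to 1.86), which restrain SMAD signalling in the cytoplasm or nucleus. The depleted members were Id1, Id2, Id3, Id4, Lefty1, Lefty2 and Bambi (from -1.35 to -0.63), which are induced inhibitors of bHLH factors, secreted antagonists of Nodal and a decoy receptor. Gene bodies measured 28407 to 89353 bases in the first set and 1160 to 8448 in the second. The list thus had no common direction.

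Pmepa1 (chr2:173224458-173276533, minus strand), a membrane protein that sequesters receptor SMADs, had 252, 229, 272 and 251 CPM in IP 3 to 6 and 79.7, 43.5, 79.5 and 81.9 in input 3 to 6. The IP libraries were far above the inputs, and input 4 was the lowest of all. It was 3.62-fold higher in the IP, a log2 fold change of 1.86 (SE 0.10, edgeR adjusted p = 6.32e-12), and 1.68 without replicate 4. This was the largest enrichment under the same conditions. Smad6, an inhibitory SMAD named after its values were seen, had 79.99, 75.04, 78.12 and 79.77 CPM in the IP and 31.5, 17.4, 27.7 and 32.4 in the input. Its IP libraries differed little, and the log2 fold change was 1.55 (SE 0.11). Ski, a SMAD corepressor, gave 1.17 (1.00 without replicate 4) and Smad7 0.88 (0.74). On the other side, Id2 had 2.26, 2.09, 1.79 and 2.32 CPM in the IP and 4.49, 6.75, 5.36 and 4.99 in the input. These groups did not overlap either, and the log2 fold change was -1.35 (SE 0.16).

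The next largest enrichments were Macrod1, Grm4, Prr7 and Gm11725. Macrod1, a mitochondrial enzyme that removes ADP-ribose, had 53.0, 45.9, 56.8 and 58.2 CPM in the IP and 16.6, 12.7, 14.5 and 20.2 in the input. Every IP library was more than 2-fold above the highest input. This gave a log2 fold change of 1.75 (SE 0.09, edgeR adjusted p = 5.67e-12). Grm4, a metabotropic glutamate receptor, gave 1.67 (SE 0.10), Prr7, a membrane adaptor of synapses and T cells with a gene body of 8888 bases, gave 1.63 (SE 0.11), and Gm11725, an antisense RNA that overlaps Tha1 on the other strand, gave 1.62 (SE 0.16). All 4 genes were higher in the IP in 4 of 4 replicates.

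Receptors of the cell surface (Notch ligands and receptors, cadherins of the Celsr and Fat families, LDL receptor relatives, plexins, receptor phosphatases, ephrin and netrin receptors) were enriched in 20 of 86, or 23.3% against 8.80% of all genes tested, with a median of 0.29. The 1 depleted member, Unc50, is no netrin receptor and entered the list by its symbol. Without replicate 4, 14 were enriched. Ephb2, an ephrin receptor named after its values were seen, had 188, 177, 195 and 183 CPM in the IP and 90.2, 59.2, 76.7 and 91.6 in the input. The IP libraries lay within a narrow range above all inputs, and the log2 fold change was 1.24 (SE 0.09). Ptprg, a receptor phosphatase with a gene body of 688510 bases, had 2673, 2515, 2015 and 2272 in the IP and 1616, 1240, 1374 and 1416 in the input. IP 5 was the lowest of its group but above every input. Its log2 fold change was 0.74 (SE 0.08), which fell to 0.23 once the trend with gene length was removed. Ptprf gave 0.32 and was not called.

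Matrix, transport and motor genes were close to the background or divided. Of 82 collagens, laminins and integrins, 10 were enriched and 2 depleted (median 0.16). Lama5, a laminin chain of basement membranes, had 857, 888, 938 and 795 CPM in the IP and 573, 433, 588 and 528 in the input. The groups did not overlap and the log2 fold change was 0.72 (SE 0.08), whereas the integrin Itgb1, named after its values were seen, was depleted (-0.87). Of 329 solute carriers, 28 were enriched and 21 depleted (median 0.01). Slc39a11, a zinc transporter, was enriched (1.24, SE 0.09) and Slc2a3, a glucose transporter, depleted (-0.70, SE 0.08). The 28 enriched carriers had a median gene body of 53850 bases and the 21 depleted ones of 9047. Of 101 kinesins, dyneins and myosins, 10 were enriched and 6 depleted (median 0.13), but 2 and 7 with the trend on gene length removed. In the cytoskeletal linker Dst the log2 fold change was 0.67 (SE 0.08).

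Of 116 chromatin remodelers and histone modifiers, 14 were enriched and 3 depleted (median 0.08), which is 12.1% and 2.59% against 8.80% and 10.7% of all genes. Enriched and depleted members numbered 9 and 3 without replicate 4, and 10 and 9 with the trend on gene length removed. Brd2, a bromodomain protein that reads acetylated histones, had 541, 651, 595 and 551 CPM in the IP and 273, 256, 306 and 284 in the input. The lowest IP library was well above the highest input. The fitted log2 fold change was 1.06 (SE 0.08, edgeR adjusted p = 3.53e-10), and 0.97 without replicate 4. Its gene body is 10612 bases, the shortest among the 14, and with the length trend removed the value was 1.25. Kdm4b, a histone demethylase named after its values were seen, gave 1.27 (SE 0.08), and the acetyltransferase Kat6b 0.54, which was not called. Of 368 zinc finger genes of the Zfp series, 56 were depleted and 21 enriched (median -0.28), or 30 and 28 (median -0.09) with the trend on GC content removed. Among the enriched were Zfp710 (1.07) and Zfp704 (0.95).

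Of 18 nuclear and imprinted lncRNAs tested, 7 were enriched and 0 depleted (median 0.31), against 5 and 1 without replicate 4 and 3 and 0 with the trend on gene length removed. The 7 enriched RNAs were Pvt1, Neat1, Kcnq1ot1, Airn, Miat, Rian and H19, with log2 fold changes from 0.59 to 0.92. Kcnq1ot1, which silences its imprinted domain from the paternal chromosome, had 470, 435, 394 and 407 CPM in the IP and 280, 204, 240 and 265 in the input. The groups did not overlap, and the log2 fold change was 0.79 (SE 0.08, edgeR adjusted p = 2.73e-08). Neat1, the scaffold of paraspeckles, had 196, 176, 202 and 202 in the IP and 115, 86.3, 109 and 110 in the input. Each IP library was above each input, with a log2 fold change of 0.89 (SE 0.08). Pvt1, a host of microRNAs next to Myc, gave 0.92, Rian 0.68 and Airn, the antisense RNA of Igf2r, 0.79. Malat1, an abundant RNA of nuclear speckles with a gene body of 6983 bases, went the other way. It had 3793, 3548, 3053 and 3643 in the IP and 5398, 4691, 4593 and 5094 in the input. All IP libraries were below all inputs, but the log2 fold change of -0.50 (SE 0.07) did not reach the fold required.

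By transcript type, the medians of the long noncoding types were mostly above 0. Their shares of enriched genes were near the 8.80% of all genes, but their members had fewer UMIs. A mean of 10 or more UMIs was reached by 576 of 1793 lincRNAs and 491 of 1491 antisense RNAs, against 15268 of all 22936 genes. Shares at like counts were not compared. Enriched and depleted genes numbered 170 and 41 among 1793 lincRNAs (median 0.25), 162 and 21 among 1491 antisense RNAs (median 0.27), 50 and 16 among 488 processed transcripts (median 0.26) and 31 and 7 among 414 genes typed as TEC (predicted loci that still lack experimental evidence, median 0.32). The enriched shares were 9.48%, 10.9%, 10.25% and 7.49%, and the depleted shares were 2.29%, 1.41%, 3.28% and 1.69%, below the 10.7% of all genes. Bidirectional promoter lncRNAs had a median of -0.03, which turned to 0.099 without replicate 4. Over all members tested, the short types had no common direction. Their medians were -0.98 for snRNA (-0.62 without replicate 4 and 0.00 without replicates 4 and 5), -1.82 for the 3 scaRNAs (-1.15 without replicate 4), 0.47 for snoRNA (0.01 without replicate 5) and 0.20 for miRNA (0.43 without replicate 4 and 0.11 without replicate 5). Most snoRNAs and miRNAs had few UMIs. Over members with a mean of 10 or more UMIs, the medians were -0.57 for 6 of 33 snoRNAs and -0.06 for 26 of 139 miRNAs. Enriched and depleted were 3 and 5 snoRNAs, and 5 and 7 miRNAs. Protein-coding genes gave 1522 and 2099 of 16162 (median -0.05). In processed pseudogenes, spliced copies of mRNAs inserted in the genome, the numbers were 32 and 173 of 1663. The median was -0.58, and -0.37 without replicate 4. The depleted share of 10.4% is near the background, but only 237 of the 1663 had a mean of 10 or more UMIs. Rpl14-ps1, a processed pseudogene, gave -1.03 (SE 0.11), but reads of such copies can come from their parent genes. Antisense RNAs took 0.362% ± 0.016 (SD, n = 4) of the UMIs in the IP and 0.266% ± 0.012 in the input, higher in the IP in 4 of 4 replicates (exact paired permutation test, p = 0.13). Gm29724, an antisense RNA, had 148, 142, 113 and 135 CPM in the IP and 94.5, 68.8, 83.7 and 90.6 in the input, without overlap, and a log2 fold change of 0.67 (SE 0.09). Tug1, typed as antisense, gave -0.57 and was not called. Without replicate 4 the median of antisense RNAs was 0.43 with 207 enriched, and without replicate 5 it was 0.15 with 130 enriched. Among processed transcripts Trerf1 (0.98) and Cct6a (-0.87), a chaperonin gene by name, went opposite ways. lincRNAs without Gm26917 and Gm42418 took 1.16% ± 0.094 of the UMIs in the IP and 1.14% ± 0.071 in the input, so their share of all UMIs hardly moved.

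Gene length and base composition were set beside the fold changes of nuclear protein-coding genes. Across 9945 such genes averaging at least 100 UMIs, the log2 fold change had a Spearman correlation of 0.59 with gene-body length, of 0.315 with the GC content of the longest transcript, and of -0.52 with the percentage of the gene body that is exon. These are descriptions across genes, which share the same 8 libraries and are not independent replicates. Against the UMIs per kb in the inputs of UV-RIP, libraries that the contrast did not use, the correlation was -0.49. Genes with high levels per length thus tended to be lower in the IP. That measure is divided by gene-body length, so a relation to level apart from length was not tested. With the genes in 5 equal bins of gene-body length, 1.21% were enriched and 45.7% depleted in the shortest bin, and 30.2% and 0.503% in the longest.

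The genes were also divided into 4 bins of length and 4 of GC content. In the longest gene bodies with the highest GC, 243 of 326 genes were enriched (74.5%) and 0 depleted. With equally long gene bodies but the lowest GC, 33 of 734 were enriched (4.50%). At the other corner, 238 of 335 genes that were both shortest and lowest in GC were depleted (71.0%), and 2 enriched. Short genes with the highest GC were depleted in 254 of 1051 (24.2%). What part of this comes from the RNA recovered with Sox2 and what part from library preparation was not tested.

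**Figure D3:**
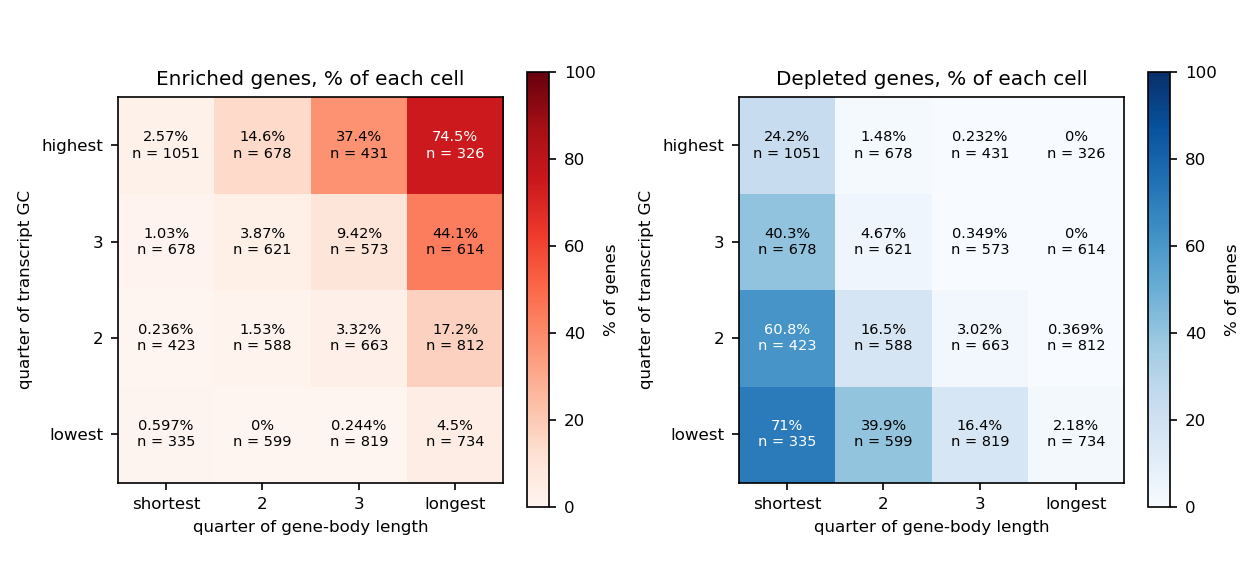
Percentage of enriched (left, red) and depleted (right, blue) genes in each combination of 4 bins of gene-body length (horizontal) and GC content of the longest transcript (vertical), over 9945 nuclear protein-coding genes; n is the number of genes in a cell. Enrichment is 74.5% among the longest, most GC-rich genes and depletion is 71.0% among the shortest, most AT-rich genes.

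The class values depended on length to unequal degrees. With the trend of the log2 fold change on gene-body length removed, 1872 genes were enriched and 1525 depleted. Mitochondrial mRNAs (median -2.02), ER chaperones (-0.86), respiratory chain genes (-0.67), cytosolic ribosomal proteins (-0.65) and histones (-0.60) stayed well below 0, with 8 of 8, 10 of 12, 46 of 88, 50 of 81 and 31 of 59 genes depleted. Calls were lost in other classes, too, and depletion was left in 19 of 74 mitochondrial ribosomal protein genes, 14 of 39 proteasome subunits, 15 of 64 translation factors, 1 of 25 tubulins and actins and 3 of 16 genes of TGF-beta and BMP feedback. Processed pseudogenes moved to a median of -0.02, and the balance of their calls turned, with 100 enriched and 32 depleted. Cell surface receptors went to 0.17 with 10 enriched, and the lists of chromatin regulators (-0.09), matrix proteins (-0.04) and motors (-0.06) changed sign, whereas nuclear and imprinted lncRNAs (0.25) and antisense RNAs (0.44) kept theirs. Pmepa1 (1.74), Macrod1 (1.40), Brd2 (1.25) and Tcf7l1 (0.76) were enriched with the trend removed, too.

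The input of replicate 4 differed in kind of RNA. Histone H4 genes were there at a median log2 ratio of 2.07 to the median of the other 3 inputs, H2B genes at 1.59, cytosolic ribosomal proteins at 0.79 and the abundant structured RNAs at 2.89, whereas receptors of the cell surface were at -0.33 and nuclear and imprinted lncRNAs at -0.32. RNAs typed as misc_RNA made up 2.81% of this library, while the range of the remaining inputs was 0.349% to 0.62%. Most of that share was Rn7sk alone, at 27880 CPM in this input. The largest single ratios were those of Rnu12 (log2 ratio 4.45), Bc1 (4.01), Rpph1, the RNA of RNase P (3.73), Ccdc107 (3.35) and Hist4h4 (3.32). Ccdc107 overlaps 2 annotated copies of Rmrp, another RNA of an RNase, by up to 164 bases on the other strand, and both copies are at 0. Far below the other inputs, among others, were Bcl11b (1.05 CPM against 4.03 to 4.20) and 2900052L18Rik (3.52 against 9.62 to 10.8). Both genes were enriched, with log2 fold changes of 1.42 and 1.19, and also without replicate 4 (1.08 and 0.93).

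The direction of some genes hung on that library. Hist4h4 had 28.6, 29.5, 51.2 and 41.3 CPM in the IP and 26.1, 338, 42.0 and 33.5 in the input. Outside replicate 4 its IP was slightly higher in each replicate. In the fit the log2 fold change was -0.62 (edgeR adjusted p = 0.21) and 0.25 without replicate 4. Ccdc107 went from -0.35 to 0.80, and Rpph1, called depleted at -1.21 (edgeR adjusted p = 0.048), to 0.24. Short RNAs and H4 histones were thus high together in 1 input, whereas histone H4 genes in IP 4 were at a log2 ratio of 0.03 to the other IP libraries.

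The IP of replicate 5 differed mainly by Gm26917 and Gm42418, both annotated as lincRNAs on chromosome 17. Their summed share was 14.4% there, compared with 6.33% to 7.82% in the other IP libraries, and 10% of the input of the same replicate, against 6.49% to 7.28% in the other inputs. Neither was called (log2 fold changes 0.18 and -0.07). CT010467.1, typed as rRNA and opposite Gm42418 on the other strand, had 97.2, 66.8, 399 and 104 CPM in the IP and 73.7, 247, 94.6 and 46.1 in the input. IP 5 was high in the one group and input 4 in the other, and the log2 fold change was 0.49 (edgeR adjusted p = 0.28), or -0.09 without replicate 5. Gm23935 (typed as miRNA), Ccdc107, Bc1 and Taco1 were also high in IP 5, at log2 ratios of 1.97, 1.62, 1.34 and 1.27. Mitochondrial mRNAs were lower there, at a median log2 ratio of -0.86, as were Gm13230 (-2.02), the zinc finger gene Zfp979 (-1.17) and the lincRNA Gm20939 (-1.17). Without replicate 5, 1972 genes were enriched and 2289 depleted, and without replicates 4 and 5, 1651 and 1882.

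**Figure D4:**
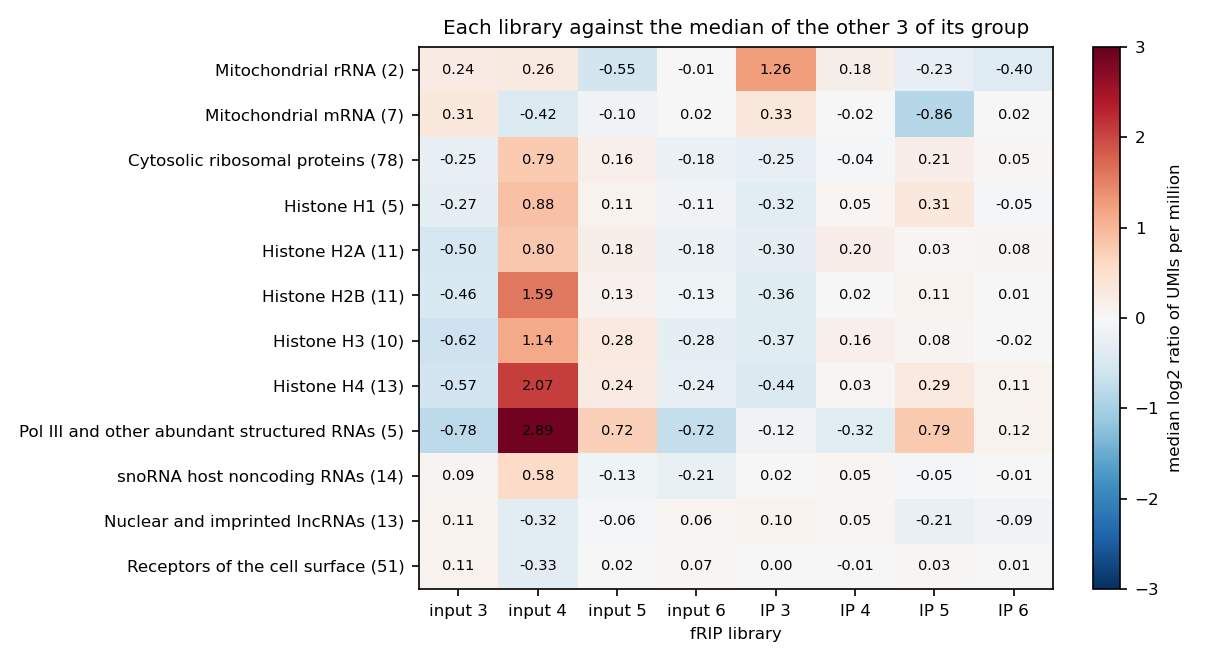
Median log2 ratio of CPM in each fRIP library to the median of the other 3 libraries of its group, for 12 gene classes (number of genes averaging at least 100 UMIs in brackets). Input 4 stands out in structured RNAs (2.89) and histones (0.80 to 2.07), IP 5 in mitochondrial mRNAs (-0.86), and IP 3 in mitochondrial rRNAs (1.26).

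Set beside UV-RIP, which links protein to RNA in direct contact, the fRIP fold changes differed in 6116 of 22936 genes (26.7%) by an interaction term over all 16 libraries. They were higher in fRIP in 4264 and lower in 1852. With TMM scaling the numbers were 3062 and 2810, so the balance of directions depended on the scaling. Over all genes the medians were -0.03 (fRIP) and -0.17 (UV-RIP).

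Mitochondrial mRNAs were depleted under both crosslinkers (medians -2.55 and -1.98), and mt-Rnr2 more so in fRIP (-3.76 against -2.45, edgeR adjusted p of the difference = 2.38e-05). Depletion of histones (median -1.22 in fRIP, -0.22 in UV-RIP), ER chaperones (-0.98, -0.16) and cytosolic chaperones (-0.78, -0.14) was larger in fRIP. The difference was past the threshold in 50 of 59, 12 of 12 and 16 of 19 genes. Without replicate 4 the histone median in fRIP was -0.92. For Hsp90b1 the log2 fold changes were -1.27 and -0.31 (adjusted p of the difference by edgeR = 5.06e-08), for Hist1h4d -1.52 and -0.14 (3.68e-05). For Rpl4 they were -0.86 and -0.44 and for Gapdh -0.59 and -0.11, both past the threshold.

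On the enriched side, Pmepa1 gave 1.86 in fRIP and 0.96 in UV-RIP (edgeR adjusted p of the difference = 2.33e-06), and Tcf7l1 1.14 and 0.15 (4.41e-08). Kcnq1ot1 gave 0.79 and 0.47 (0.0141). For Brd2 the values were 1.06 and 1.13, and the difference of -0.07 was not past the threshold (edgeR adjusted p = 0.691). Malat1 was below its input under both, less so in fRIP (-0.50 and -0.72, edgeR adjusted p = 0.0266). Dhx9, a nuclear RNA helicase, was the gene of the 12 set beside UV-RIP whose sign differed. It had 536, 569, 423 and 492 CPM in the fRIP IP and 594, 764, 591 and 590 in the input, all IP libraries below all inputs, and log2 fold changes of -0.33 (fRIP) and 0.39 (UV-RIP) (edgeR adjusted p of the difference = 8.03e-07). In neither did Dhx9 reach the fold of 1.5.

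**Figure D5:**
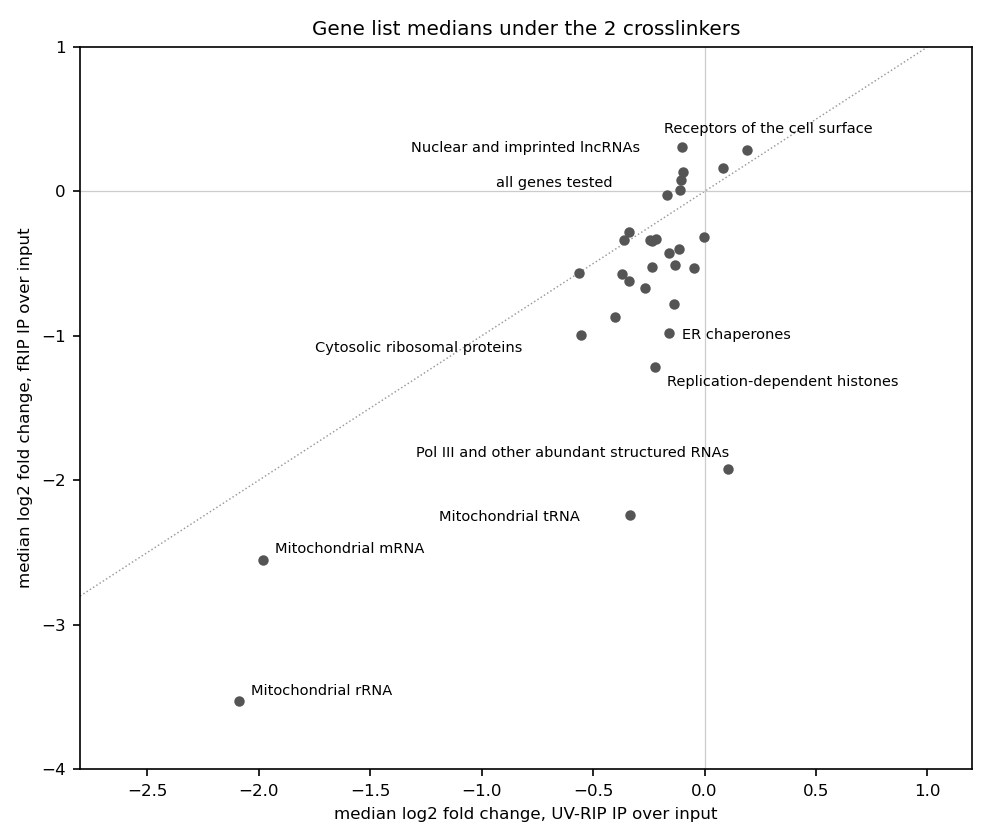
Median log2 fold change of IP over input in fRIP (vertical) against UV-RIP (horizontal) for 30 gene lists and all genes tested; the dotted line marks equal values. Histones, chaperones, ribosomal proteins and structured RNAs lie below the line. Nuclear and imprinted lncRNAs (0.31 against -0.10) and cell surface receptors (0.29 against 0.19) lie above it. Without replicate 4 the fRIP medians were -0.21 for structured RNAs (-1.93 with it) and -0.92 for histones (-1.22 with it).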

How the data were processed

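RNA from Sox2 IP and from input of mESC was sequenced with UMI adaptors. The authors mapped the reads with STAR, kept uniquely mapped reads, counted with featureCounts and deposited raw counts, the number of UMIs within each GENCODE vM16 gene body. The processing notes name mm10 as the genome; tool versions and the strand setting are not given in the sources used here. Protein-coding genes nested on the same strand were all at 0. Symbols, types and transcripts are from GENCODE vM21 on GRCm38, matched by identifier and version for 50604 of 53379 genes and by identifier alone for 2670; coordinates are given for the former only.

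The counts were fitted in R 4.3.3 with edgeR 4.0.16 (glmQLFit), total UMIs as library size and the replicate number as a block, over genes that reached 3 UMIs in 1 or more of 16 libraries, with Benjamini-Hochberg adjustment over all 22936 genes. The deviations of same-numbered IP and input from their group means had correlations of 0.587, 0.108, 0.595 and 0.311 across 10373 genes, and each input was drawn from the supernatant of its IP. Replicates differed by more than sampling noise (chi-square per degree of freedom 3.17 or more). In a simulation of the fRIP comparison over 22936 genes, 183 of 200 genes changed by a log2 of 1 were recovered (91.5%), with 3 false calls. UMI shares were compared by exact permutation tests. Library ratios used CPM with an offset of 0.5. The difference between crosslinkers was an interaction term with the replicate as a block.

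Members, gene lists and tests were chosen with earlier results of these data known. Named genes are, for each list and transcript type, the members with the most UMIs (up to 4), the 5 largest enrichments and 5 largest depletions among called genes averaging at least 100 UMIs and the same direction in 4 of 4 replicates, the 5 genes farthest up and down in each deviating library, and Sox2, Pmepa1, Brd2, Malat1 and Gapdh; all others, among them called members of short lists, were named after their values were seen. Alternatives were TMM, DESeq2 1.42.0 with both scalings, other count filters, no block, all 16 libraries, replicates left out, other fold rules, other library sizes and a length trend removed; a GC trend removed and replicates 4 and 5 left out together were added after seeing the data. Intervals from depth alone are not given; the spread is that between replicates.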

Additional observations from a re-analysis of the deposited data

Results flagged for a closer look

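In 37 of 222 groups of 4 libraries examined, 1 library lay apart from the other 3 by Dixon's test at the 95% level. Chance flags about 1 in 20 groups, but the genes examined include ones named because they deviated in these libraries, so the number cannot be set against that rate. The input of replicate 4 accounted for 29, the IP of replicate 5 for 7 and the IP of replicate 3 for 1.

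In the input of replicate 4, noncoding RNAs and histone genes were far above the other inputs. In CPM (UMIs of a gene per 1000000 UMIs), Rn7sk was at 27880, Scarna2 at 311, Bc1 at 220, Terc at 124, Rnu12 at 67.3, Rpph1 at 35.3 and mt-Tt at 5.91. Hist1h4d was at 810, Hist1h1d at 532, Hist1h4c at 514, Hist1h2bb at 347 and Hist4h4 at 338. Ccdc107 (184), Rpl3 (572), Dhx9 (764) and Ddx3x (609) were also above the other inputs. Esrrb (681), Ptprf (235), Zfp710 (216), Ski (117), Kdm4b (59.5), Pmepa1 (43.5), 2900052L18Rik (3.52) and Bcl11b (1.05) were below them. As shares of all UMIs, misc_RNA took 2.81%, histones 0.928%, genes whose longest transcript is under 300 bases 0.118%, scaRNA 0.0316% and snRNA 0.0314%.

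In the IP of replicate 5, Gm42418 was at 19350 CPM, CT010467.1 at 399, Calr at 192, Gm23935 at 86.5, Taco1 at 24.6, Terc at 17.3 and Bc1 at 8.35, each above the other IP libraries. In the IP of replicate 3, mt-Rnr2 was at 10.8.

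Between the crosslinkers, the log2 fold change differed by the edgeR interaction test in 6116 genes, and in 11 of the 12 genes set side by side. The difference of fRIP minus UV-RIP was -1.39 for Hist1h4d, -1.27 for mt-Rnr2, -0.99 for mt-Co1, -0.95 for Hsp90b1, -0.72 for Dhx9, -0.48 for Gapdh and -0.43 for Rpl4. It was 1.00 for Tcf7l1, 0.90 for Pmepa1, 0.33 for Kcnq1ot1 and 0.22 for Malat1.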

How the results depend on the processing

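Without the replicate block 1964 genes were enriched and 2451 depleted, and the block changed the call of 3 of 98 named genes. With no fold threshold the numbers were 4036 and 5018, and with the fold of 1.5 itself tested 728 and 1007. With the length trend removed 1525 were depleted, and the cause was not tested. Leaving out a replicate gave between 1790 and 2040 enriched and between 2159 and 2584 depleted genes. By the unpaired exact test without the replicate block (p = 0.0286, the smallest it can give) the share of UMIs in the IP minus the input was, in percentage points, 0.0959 for antisense RNAs, -0.0285 for processed pseudogenes, -0.00966 for snRNA, -0.00871 for scaRNA, -1.16 for mitochondrially encoded genes, -0.288 for histones and -0.740 for ribosomal proteins. Without replicate 4 these were -0.00283 for snRNA, -0.00292 for scaRNA and -0.132 for histones. Leaving out 1 replicate each, the share of protein-coding genes differed by between -0.49 and 1.66 and that of other lincRNAs by between -0.0006667 and 0.043 percentage points, negative without replicate 4. With the length trend removed, list medians were -2.02 for mitochondrial mRNAs, -0.60 for histones, -0.86 for ER chaperones, -0.0868 for chromatin regulators, -0.0417 for collagens, laminins and integrins, -0.0563 for kinesins, dyneins and myosins, and 0.0414 for snoRNA hosts. The lincRNA median was 0.35 with 10 UMIs in 4 libraries required, 0.33 with the GC trend removed and 0.33 with the length trend removed. The antisense median was 0.38 with 10 UMIs in 4 libraries, 0.34 by DESeq2 with median-of-ratios, 0.44 with the length trend removed, and 0.15 to 0.43 leaving out 1 replicate each. That of processed pseudogenes was -0.0201 with the length trend removed, -0.32 without replicates 4 and 5, and -0.67 to -0.37 leaving out 1 replicate each.

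Signs of single genes turned as well. With the length trend removed, Gm42418 was at 0.38, Rn7sk at 0.0519 and Ccdc107 at 0.0246. Without replicates 4 and 5, Rn7sk was at 0.13, Rpph1 at 0.99, Ccdc107 at 0.40 and Hist4h4 at 0.22. Leaving out 1 replicate each, Rn7sk ranged from -1.07 to 0.00245, Rpph1 from -1.70 to 0.24, CT010467.1 from -0.0908 to 1.26, Ccdc107 from -1.08 to 0.80 and Hist4h4 from -0.997 to 0.25. Of the 98 named genes, 92 kept their call with TMM, 94 by DESeq2 with total UMIs, 85 without replicate 4 and 68 with the length trend removed. Small counts limit the short RNAs, since several stood at a few CPM.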
